A study of Mus musculus with 30 samples.

Results

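These data compare medullary thymic epithelial cells (mTECs) with and without Aire on the NOD background, at the level of single transcripts. The comparison takes in 6 of the 30 samples of the series: 3 WT and 3 Aire-KO libraries of Aire-GFP+ mTECs from NOD/ShiLtJ mice, chosen by their labels alone. All 6 came from female mice of 4 to 6 weeks with no treatment listed, and each library was made from 1000 cells sorted for the Aire-GFP reporter after enzymatic digestion of the thymus and removal of CD45+ cells. The labels give neither the structure of the knockout allele and the reporter nor the number of mice behind a library, so p values measure the spread between libraries, which may be technical. Poly(A) RNA was amplified by Smart-seq2, and the deposited kallisto tables list 85723 transcripts with their length, estimated count and TPM (a level scaled for transcript length and library size).

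Thymic epithelial cells of the medulla display proteins of other organs to developing T cells, so that T cells that react to the body's own tissues are removed or diverted. Aire is the transcription regulator that turns on many of these tissue genes, each of them in a minority of mTECs, and its loss causes autoimmunity in mice and people. NOD mice develop autoimmune diabetes spontaneously, which makes the strain a common background for studies of tolerance to self.

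The transcripts carry IDs of a NOD-specific annotation, and none was matched to a gene name (0 matches in GENCODE M21 and 0 lines in the name tables used here). Results are therefore given for classes of transcripts, by abundance, length and size of change, and only 2 IDs per direction are printed. For the same reason Aire itself, the reporter, and the markers of mTECs, thymocytes and other thymus cells were not checked in these libraries. Totals ran from 4207334 to 5339884 counts per library. Replicates differed by more than counting error, with a chi-square per degree of freedom of 9.7 to 12.3 over transcripts of 20 counts or more in a pair. Spearman correlations of CPM (counts scaled to library size with TMM factors) over the tested transcripts were 0.84 to 0.852 among WT libraries, 0.85 to 0.862 among Aire-KO libraries and 0.754 to 0.791 across genotypes. These are descriptions across transcripts, which are not independent replicates.

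Aire-KO cells showed fewer kinds of transcript than WT cells at every depth examined. When each library was thinned to the smallest total, 4207334 counts, the WT libraries held 47724, 47790 and 48026 transcripts with at least 1 count, and the Aire-KO libraries 43798, 44512 and 43251. The genotypes did not overlap, and the lowest WT library stood above the highest Aire-KO library. The means were 47847 ± 158.9 and 43854 ± 632 (SD, n = 3 each), a difference of -8.35% (exact permutation test, two-sided, p = 0.1; no split of 3 and 3 libraries can go below this). In bulk samples, fewer cells that express a transcript and less of it per cell cannot be told apart. With at least 5 counts required, the numbers were 34122 ± 268 and 30561 ± 334, -10.4%. Among transcripts whose estimated counts were whole numbers in all 6 libraries, they were 5518 ± 83.5 and 4277 ± 207.4, -22.5%; a count of 0 is whole too.

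**Figure D1:**
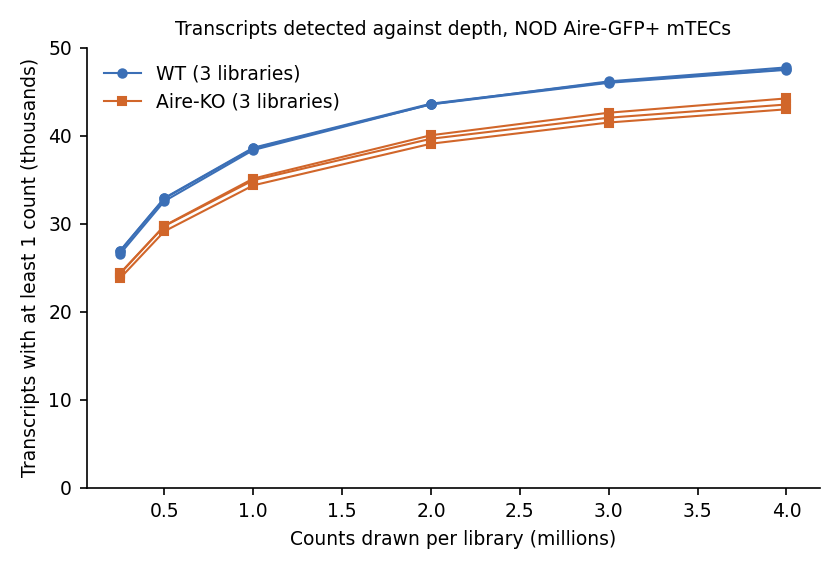
Number of NOD transcripts with at least 1 count (vertical axis) expected when a library is thinned to the number of counts on the horizontal axis; each line is 1 library. The 3 WT lines lie above the 3 Aire-KO lines from 250000 counts (26796 against 24164 on average) to 4000000 counts (47606 against 43602).

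The difference was of like size along the curve, -9.82% at 250000 counts, -9.64% at 1000000 and -8.41% at 4000000. The curves still climbed at the end: WT libraries went from 43599 transcripts on average at 2000000 counts to 47606 at 4000000, and Aire-KO libraries from 39606 to 43602.

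Transcripts seen in WT alone outnumbered those seen in Aire-KO alone, and the imbalance was greater the more consistently they were seen. At equal depth 69701 of the 85723 transcripts had a count in some library, 26311 of them in all 6, and 16022 had none. Of the transcripts with no count in Aire-KO cells, 7154 were seen in 1 WT library, 2900 in 2 and 1346 in all 3. In the mirror image, with no count in WT cells, 5075 were seen in 1 Aire-KO library, 1446 in 2 and 293 in all 3. Detection was patchy in both genotypes: 53.8% of the transcripts seen in any WT library were seen in all 3, and 53% of those seen in any Aire-KO library. A WT library held 2315 to 2433 transcripts seen in no other of the 6, against 1606 to 1856 in an Aire-KO library (exact permutation p = 0.1, n = 3 each).

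By deposited TPM, taken at full depth (library totals overlapped between genotypes), the difference was greatest in transcripts of modest abundance. The class from 1 to 10 TPM held 25372, 25191 and 24942 transcripts in the WT libraries and 22218, 22387 and 21416 in the Aire-KO libraries, -12.6% on average. The class from 10 to 100 TPM held 8596 ± 180 and 8183 ± 270.4, -4.80%. With a library left out this ran from -5.93 to -3.01%. The exact permutation p was then 0.2 without Aire-KO replicate 3 or any 1 of the WT libraries. With classes of CPM in place of TPM the difference was -9.31%. Neither class overlapped between genotypes, and both gave the smallest possible exact permutation p of 0.1 (0.175 adjusted over the 7 classes). Transcripts listed at 0 TPM were the counterpart, 34473 to 35484 in WT and 37874 to 39851 in Aire-KO libraries.

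**Figure D2:**
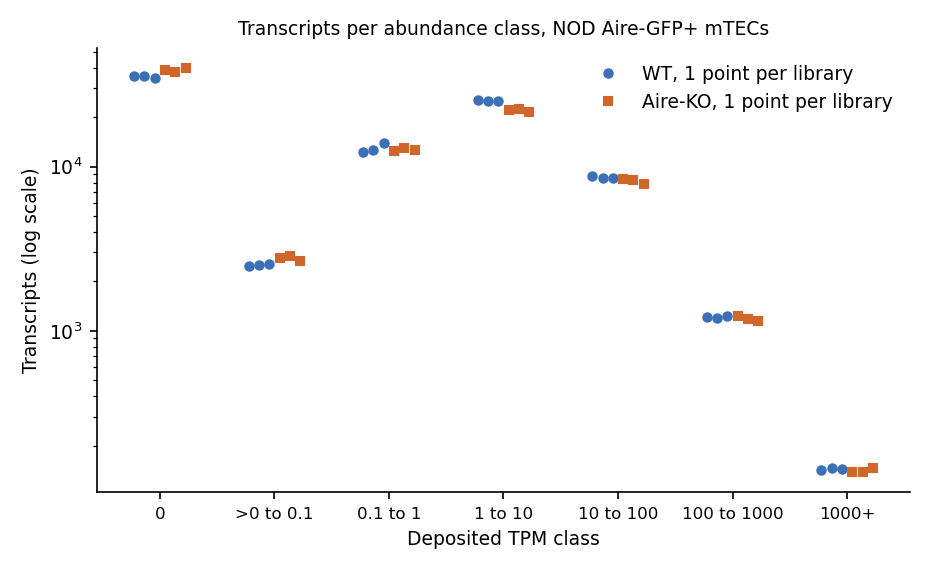
Number of transcripts (vertical axis, log scale) in each class of deposited TPM (horizontal axis); each point is 1 library, WT in blue circles and Aire-KO in orange squares. The genotypes separate in the classes of 0, above 0 to 0.1, 1 to 10 and 10 to 100 TPM, and overlap from 0.1 to 1 and from 100 TPM upwards.

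Abundant transcripts were as many in both genotypes but took more of the counts in Aire-KO cells. From 100 to 1000 TPM there were 1216 ± 12.1 transcripts in WT and 1190 ± 37.6 in Aire-KO, and from 1000 TPM upwards 144 ± 2 and 141 ± 4.62, with overlapping libraries. The latter class took 18.3 to 19.7% of counts in WT and 19.9 to 22.6% in Aire-KO libraries. The 100 most abundant transcripts of a library held 19.0, 19.6 and 18.9% of its counts in WT and 21.1, 22.0 and 23.0% in Aire-KO. To reach 50% of the counts took 1325, 1260 and 1282 transcripts in WT and 1057, 991 and 898 in Aire-KO. Each of these shares and numbers was separated between genotypes (exact permutation p = 0.1, n = 3 each). Over 55 such library-level measures, 38 did not overlap (12 higher and 26 lower in Aire-KO) and 17 did, and the smallest adjusted p was 0.145, so none could pass a threshold of 0.05 in this design. Many of the 55 restate one another, such as detection at several depths, so the 38 are not separate results.

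The test for single transcripts asked which of them changed without Aire. edgeR's quasi-likelihood test with Benjamini-Hochberg adjustment called 2018 of 27690 tested transcripts (7.29%) at adjusted p < 0.05, 1094 lower (3.95%) and 924 higher (3.34%) in Aire-KO cells. Among calls of at least 2-fold, 958 were lower (3.46%) and 523 higher (1.89%). Over all tested transcripts the median log2 fold change was -0.02, 14333 lay below 0 and 13357 above, and 5624 had an unadjusted p under 0.05. Groups of 3 libraries did not overlap in CPM for 4352 transcripts lower (15.7%) and 3809 higher (13.8%) in Aire-KO, so a lack of overlap was itself common. With library totals in place of TMM scaling, 687 were called higher and 1389 lower, as the median log2 fold change moved to -0.16. The excess of lower calls was not stable. Without the low-count filter, 849 were called higher and 847 lower, and with a filter at a mean of 1 CPM, 790 and 799. At 2-fold or more these fits kept more lower calls (536 higher and 793 lower, 460 and 718). limma-voom turned the excess to 744 higher and 282 lower, and to 428 and 195 at 2-fold or more. So did leaving out WT replicate 1 (361 higher, 268 lower), WT replicate 2 (272 and 200) or WT replicate 3 (340 and 263), with 280 and 251, 218 and 193, and 263 and 256 at 2-fold or more. Lower calls stayed the more frequent without Aire-KO replicate 1 (734 higher, 764 lower), 2 (291 and 333) or 3 (387 and 435). The total was 629, 472 and 603 without WT replicate 1, 2 or 3, and 624 and 822 without Aire-KO replicate 2 or 3.

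By size, the falls called with all 6 libraries held more transcripts without a count than the rises. Of the 1094 transcripts called lower, 288 (26.3%) had no count in any Aire-KO library and 194 had 1 to 3 counts there in all. Against a floor of 3 counts over the group, which allows for counting error only, those 288 were at least 11.8-fold to at least 319-fold lower. The 612 with more counts fell by a median of 2.45 on the log2 scale (5.45-fold); 149 of them fell 16-fold or more, 213 between 4-fold and 16-fold, 114 between 2-fold and 4-fold, and 136 less than 2-fold. Of the 924 called higher, 43 (4.65%) had no count in WT and 8 had 1 to 3. The 873 others rose by a median log2 of 1.05 (2.08-fold); 3 rose 16-fold or more, 85 between 4-fold and 16-fold, 384 between 2-fold and 4-fold, and 401 less than 2-fold. With transcripts that had no count set at their bounds, the median fold was 19.9 for falls and 2.13 for rises. The 288 and the 43 passed the low-count filter through the genotype where they were high, so these medians describe the calls and support no contrast between falls and rises.

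**Figure D3:**
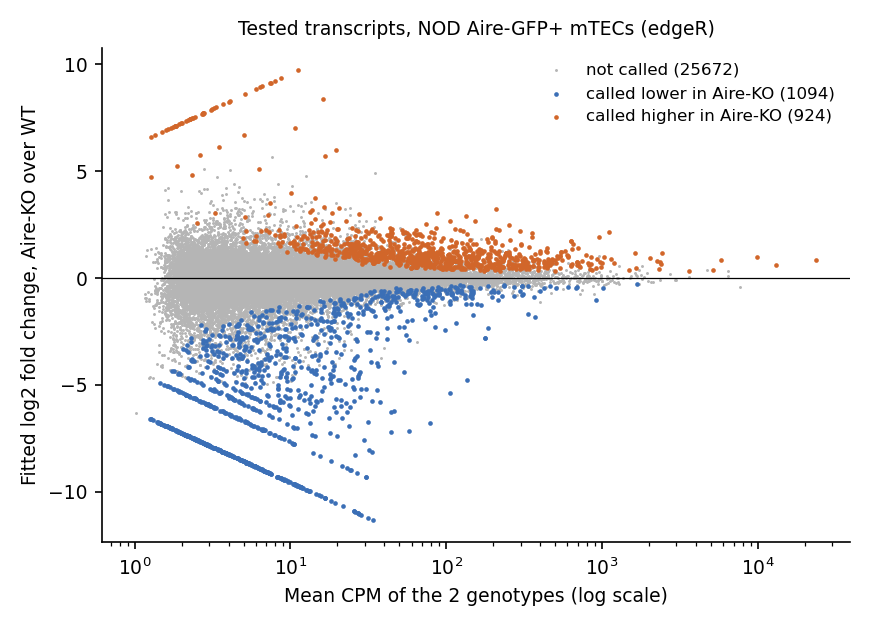
Fitted log2 fold change of Aire-KO over WT (vertical axis) against the mean CPM of both genotypes (horizontal axis, log scale) for the 27690 tested transcripts; called transcripts are coloured by direction, 1094 lower and 924 higher. The straight diagonal bands are transcripts with no count, or with the same few counts, in 1 genotype, whose fitted value is no measured size.

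At equal depth the numbers and sizes of calls were near those at full depth. edgeR on the thinned counts called 1983 of 26552 transcripts (7.47%), 1074 lower (4.04%) and 909 higher (3.42%), of which 938 and 513 were at least 2-fold changed (3.53% and 1.93%). Of the full-depth calls, 1006 falls and 871 rises were called again. The thinned counts are draws from the same 6 libraries, so this overlap was likely from the start. The median fold with absent transcripts at their bounds was 19.3 for falls and 2.12 for rises. As at full depth, these medians support no contrast between falls and rises.

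A simpler count asked which transcripts had firm estimated counts in one genotype and none in the other. At equal depth, 477 transcripts had 5 or more counts in each WT library and no count in any Aire-KO library; 76 showed the reverse. They made up 1.89% of the 25236 transcripts with 5 counts in every WT library and 0.332% of the 22869 with 5 counts in every Aire-KO library. The lost transcripts had a median of 20.7 counts per WT library, and the gained ones 15.3 counts per Aire-KO library. The folds are lower bounds on estimated counts that allow for counting error only. They cover neither the wider spread between libraries nor how reads shared between transcripts were divided. For losses they were at least 20.7-fold at the median and at least 290.3-fold at the highest. For gains they were at least 15.3-fold and at least 85.3-fold. A bound of 64-fold or more was reached by 61 lost and 2 gained transcripts. Only 310 of the lost and 45 of the gained passed the low-count filter of edgeR, which they did through the genotype where they were high; 303 and 45 of those were called.

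Lost and gained transcripts also differed in whether their reads were shared with other transcripts. kallisto divides reads that fit several transcripts, so an estimated count that is not whole (beyond 0.001) marks shared reads. Of the 477 lost transcripts, 108 (22.6%) had whole counts in all 3 WT libraries, against 11.6% of all transcripts with 5 counts in every WT library. Of the 76 gained transcripts, none had whole counts in all 3 Aire-KO libraries, where 10.3% of the transcripts with 5 counts in each did. Every gained transcript thus had reads shared with another transcript in at least 1 library where it was seen. The shares were not tested against each other, and a whole count does not show that a transcript shared no reads. For a transcript with divided counts, a 0 can also mean that its shared reads were given to another transcript, which was not tested.

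Among the calls, whole counts were more frequent in both directions. Of the 27690 tested transcripts, 2525 had whole counts in all 6 libraries, where a count of 0 is whole too. Among them 420 were called (16.6%), 293 lower (11.6%) and 127 higher (5.03%), and of these 281 and 58 were at least 2-fold changed (11.1% and 2.30%). Among the 25165 with divided counts the calls were even, 801 lower (3.18%) and 797 higher (3.17%), of which 677 (2.69%) and 465 (1.85%) were at least 2-fold changed. All 43 of the called transcripts without a WT count had divided counts, while 65 of the 288 without an Aire-KO count had whole counts.

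The largest falls were steady in Aire-KO, at no counts, and uneven in WT. MGP_NODShiLtJ_T0062825.1, a transcript of 1171 bases, read 79.5, 63.6 and 58.7 CPM in the WT libraries and 0 in each Aire-KO library. That is at least 319-fold lower (edgeR adjusted p = 0.00274), and the call held with each library left out (highest adjusted p = 0.0266). All 10 transcripts with the largest falls among those of 5 CPM or more on average had no count in Aire-KO, with WT means of 43.5 to 67.3 CPM, lengths of 555 to 8801 bases and bounds of at least 206-fold to at least 319-fold. In 6 of the 10 the highest WT library exceeded the lowest by more than 3-fold. A transcript of 3810 bases went furthest, at 11.2, 95.3 and 59.1 CPM in the WT libraries. Steady ones also occurred, such as a transcript of 555 bases at 50.5, 45.2 and 57.4 CPM and one of 8801 bases at 66.1, 51.3 and 51.6 CPM. Of the 10 calls, 4 held in every fit with a library left out, and 2 of the 10 transcripts had whole counts.

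By the same ranking, and with the same limits, the largest rises had little or no count in WT and reached lower levels. MGP_NODShiLtJ_T0092767.1, of 4178 bases, read 0 in each WT library and 22.8, 24.6 and 19.3 CPM in the Aire-KO libraries, at least 105-fold higher (edgeR adjusted p = 0.00542; highest adjusted p with a library left out 0.0332). Of the 10 largest rises, 9 had no WT count and the other had 0.187 CPM in WT replicate 3 alone. Their Aire-KO means ran from 10.2 to 32.3 CPM and their lengths from 786 to 8910 bases. In 5 of the 10 the highest Aire-KO library exceeded the lowest by more than 3-fold, as in a transcript of 6796 bases at 5.5, 13.8 and 32.9 CPM. None of the 10 had whole counts, and the calls of 2 held in every fit with a library left out.

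**Figure D4:**
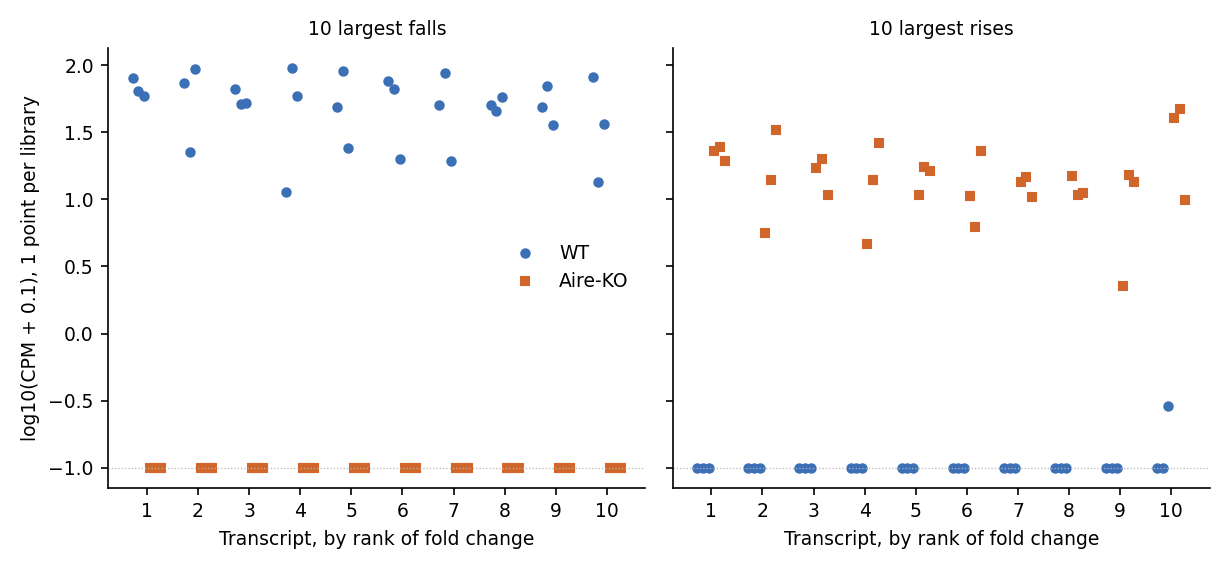
CPM in each library, as log10(CPM + 0.1) on the vertical axis, for the 10 transcripts with the largest falls (left) and the 10 with the largest rises (right), by rank on the horizontal axis; points at -1 are libraries without a count. WT libraries of the falls reach 11.2 to 95.3 CPM with wide spread, and Aire-KO libraries of the rises 2.16 to 46.7 CPM.

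Among abundant transcripts the changes were small and mostly upward. The most abundant transcript of all, MGP_NODShiLtJ_T0046770.1 of 1205 bases, read 16995, 16765 and 17201 CPM in the WT libraries and 27176, 29686 and 33533 CPM in the Aire-KO libraries. It rose by a log2 of 0.83 (SE 0.0849, edgeR adjusted p = 0.00644), and every Aire-KO library stood above every WT library. The next most abundant, of 1513 bases, rose by 0.62 (10260.2 ± 169 to 15784 ± 813 CPM), and the third, of 1133 bases, by 0.96 (6689 ± 294 to 13039 ± 1747 CPM). All 3 kept their calls in each fit with a library left out (log2 0.6 to 1.08). The 2 next most abundant transcripts called higher, of 1185 and 1890 bases, rose by 0.84 and 0.39, and their calls held in 2 and 1 of the 6 fits. In the other direction, the most abundant transcript called lower was MGP_NODShiLtJ_T0027221.1, of 1916 bases. It read 1788, 1805 and 1904 CPM in WT and 1575, 1447 and 1484 CPM in Aire-KO libraries (log2 -0.29, SE 0.0638, adjusted p = 0.0484), and its call was lost whichever of the 6 libraries was left out (highest adjusted p = 0.171). The 5 most abundant transcripts called lower had log2 fold changes from -1.01 to -0.29, and none of these calls held in every such fit. None of the 5 most abundant transcripts called in either direction had whole counts, so each had reads shared with another transcript. Whether they shared reads with one another, and so rose or fell together, was not tested.

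Across abundance classes, defined by the mean TPM over all 6 libraries, the share called lower was nearly level while the share called higher rose with abundance. Lower calls made up 4.28% of tested transcripts from 0.1 to 1 TPM, 3.78% from 1 to 10, 4.09% from 10 to 100 and 4.85% from 100 to 1000. Higher calls made up 0.623, 1.18, 6.28 and 16.3% of the same classes. For calls of at least 2-fold the shares ran in opposite ways, from 4.23 to 3.72, 3.01 and 1.67% for falls and from 0.623 to 1.04, 3.41 and 5.43% for rises. The 1000 TPM class, with 141 transcripts, had 4 calls lower and 18 higher. Spread between libraries moves with abundance too: the median coefficient of variation in WT was 49.6% from 0.1 to 1 TPM, 33.7% from 1 to 10, 16.2% from 10 to 100 and 8.27% from 100 to 1000, and in Aire-KO 60.4, 36.1, 17.2 and 9.65%. Its part in the shares of calls was not tested.

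**Figure D5:**
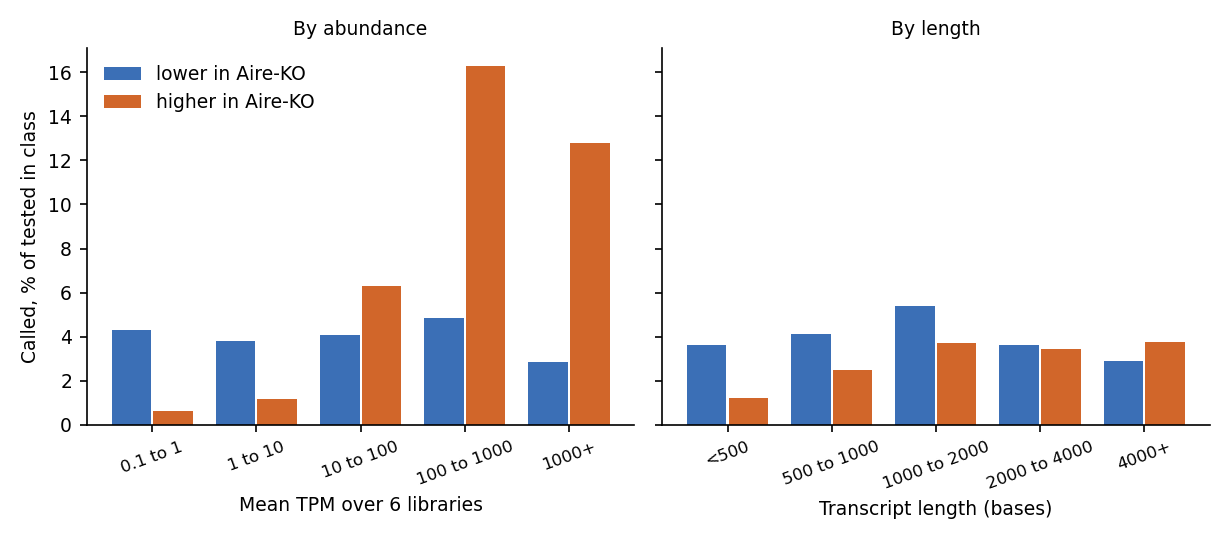
Percentage of tested transcripts called lower (blue) or higher (orange) in Aire-KO cells, by mean TPM over the 6 libraries (left) and by transcript length (right). Lower calls stay between 2.84 and 5.41% in all classes shown; higher calls go from 0.623% at 0.1 to 1 TPM to 16.3% at 100 to 1000 TPM.

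Falls and rises differed in their level in WT. Transcripts called lower had a median of 14 CPM in WT and 0.463 CPM in Aire-KO, those called higher 44.2 and 91.8 CPM, and those not called 8.85 and 8.61 CPM. The 1094 falls together held 4.75 to 4.94% of the counts of a WT library and 1.79 to 1.99% of an Aire-KO library. The 924 rises held 14.2 to 14.7% and 22.3 to 25.2%. These shares describe transcripts chosen from the same libraries and are no further evidence of their direction.

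Falls were shorter than rises at the median, and loss was more frequent under 2000 bases than above, which gain was not. The median length was 1990 bases for falls, 2536 for rises and 2368 for transcripts not called. Of tested transcripts under 500 bases, 3.64% were called lower and 1.21% higher, and from 500 to 1000 bases 4.12 and 2.5%. The shares were 5.41 and 3.70% from 1000 to 2000 bases, 3.64 and 3.45% from 2000 to 4000, and 2.88 and 3.74% from 4000 upwards. Lost transcripts made up 2.73% of those with 5 counts in every WT library under 500 bases, 2.86% from 500 to 1000, 2.45% from 1000 to 2000, 1.5% from 2000 to 4000 and 1.04% above. Gained ones made up 0 of 842 under 500 bases and 0.509, 0.315, 0.337 and 0.256% of the longer classes. Falls were also less abundant than rises in each length class, at a median of 6.4 to 8.35 CPM against 49.3 to 72.3 CPM over the libraries, and the part of abundance in these length shares was not tested.

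Breadth of detection was lower in every length class. Like the share of lower calls, the difference was greatest from 1000 to 2000 bases and smallest from 4000 upwards. The share of lost transcripts was greatest from 500 to 1000 bases. At equal depth Aire-KO libraries held fewer transcripts in each length class, by -9.65% under 500 bases, -9.00% from 500 to 1000, -10.9% from 1000 to 2000 (the greatest), -7.41% from 2000 to 4000 and -4.73% from 4000 upwards, without overlap in any class (exact permutation p = 0.1 each, n = 3 each). The median length of a detected transcript was 1744, 1734 and 1743 bases in WT and 1788, 1770 and 1786 bases in Aire-KO libraries. Weighted by counts, length did not separate the genotypes: the mean was 2518, 2434 and 2462 bases in WT and 2507, 2532 and 2435 bases in Aire-KO (exact permutation p = 0.7, n = 3 each). The trim from length to effective length, which follows the fragment size, was 201, 195 and 190 bases in WT and 193, 186 and 186 bases in Aire-KO libraries, and its part in these results was not tested. With an offset for effective length, edgeR called 915 transcripts higher and 1100 lower.

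A core of calls did not depend on any single library. Of the falls, 147 (13.4%) were called in all 6 fits with a library left out, 143 of them at least 2-fold, 47 with whole counts and 24 with no Aire-KO count. Of the rises, 202 (21.9%) were, 161 of them at least 2-fold, 35 with whole counts and 2 with no WT count. No transcript called in one direction was called in the other in any of these fits (0 in each). These fits reuse the libraries of the full fit, so a reversed call was unlikely from the start. The core falls had a median of 18.1 CPM over the libraries and the core rises 113 CPM. There were 387 falls and 222 rises that no such fit called. DESeq2 called 1093 of the 1094 falls and all 924 rises among its own 2429 and 2095; limma-voom called 265 of the falls (24.2%) and 726 of the rises (78.6%).

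The B6 Aire-GFP+ libraries, from C57BL/6J mice of the same age, sex and sort (3 WT, 2 Aire-KO), use another transcript annotation of 118489 entries, so the strains are set side by side without a test of their difference. Thinned to the same 4207334 counts, B6 WT libraries held 52451, 55638 and 54429 transcripts and Aire-KO libraries 44018 and 44075, -18.7%, next to -8.35% in NOD. By the same rule of 5 counts, 1394 B6 transcripts were lost and 170 gained, where NOD had 477 and 76; with 2 Aire-KO libraries that rule is easier to meet in B6. The edgeR fit of B6 was not at equal depth: its libraries held 6614743 to 12681566 counts, against 4207334 to 5339884 in NOD. It called 4938 of 38620 B6 transcripts (12.8%), 2784 lower (7.21%) and 2154 higher (5.58%), with 2564 (6.64%) and 1384 (3.58%) at least 2-fold changed. Replicates varied by a biological coefficient of variation of 0.517 in the NOD fit and 0.652 in the B6 fit. The count-weighted mean length was 2299 ± 27.6 bases in B6 WT and 2076 ± 2.87 in B6 Aire-KO libraries, while the NOD libraries overlapped. The trim from length to effective length was 207, 206 and 205 bases in B6 WT and 189 and 181 in B6 Aire-KO. Its part in the B6 lengths was not tested.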

How the data were processed

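RNA of 6 NOD Aire-GFP+ mTEC libraries was analysed per transcript. The authors deposited 1 table per library that holds estimated counts, TPM, lengths and effective lengths, per the file headers. The submitters' processing notes name kallisto, STAR and featureCounts without version, TopHat2 2.1.1, SAMtools 1.3.1 and mm10; for the transcript index no source used here gives a name. None of the 85723 IDs matched GENCODE M21. Estimated counts were rounded and tested with edgeR 4.0.16 in R 4.3.3 (quasi-likelihood, TMM, filterByExpr, Benjamini-Hochberg over 27690 transcripts, call at adjusted p < 0.05), fitted on the 6 libraries without a block. B6 was fitted apart. limma 3.58.1 and DESeq2 1.42.0 were alternatives. Detection at equal depth is the exact hypergeometric expectation at the smallest library total, 4207334 counts; losses and gains use 1 seeded draw at that depth. Library measures were compared by exact two-sided permutation. Steps were tested on simulated data. Amplified reads carry no molecular identifiers, so bounds cover counting error only, and not how kallisto divided shared reads.

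Transcripts named are the 10 largest changes per direction among calls whose libraries did not overlap and averaged at least 5 CPM, the 5 most abundant calls per direction and the 3 most abundant of all. Of these only 2 IDs per direction are printed, since no table links them to genes. The measures, classes and rules were chosen with earlier results of these data known. The mTEChi and F1 samples are not analysed here.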

Additional observations from a re-analysis of the deposited data

How the results depend on the processing

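Of 135 recomputed values, 93 kept their direction or stayed within 1.5 times. Total calls (2018) became 4524 with DESeq2, 1026 with limma-voom and 472 to 1498 with a library left out; calls of at least 2-fold (1481) became 2705, 623, 411 to 1159, and 857 with edgeR glmTreat against a fold of 1.5. With the replicate number as a block, 93 transcripts were called (57 higher, 36 lower), 92 of them at least 2-fold. Deviations of same-numbered libraries from their genotype means had correlations of 0.0116, -0.0209 and -0.0275. With no other pairs for reference, these values cannot show whether same-numbered libraries share a batch. Calls among transcripts with whole counts (420) ran from 104 to 321 with a library left out. These 3 counts moved by over 1.5 times when WT replicate 1, 2 or 3 or Aire-KO replicate 2 or 3 was left out (at least 2-fold: 531, 411, 519, 527 and 668; whole counts: 128, 104, 138, 140 and 182), and by less when Aire-KO replicate 1 was left out. Lost transcripts (477) were 278 at 10 counts, 723 when 1 count was allowed in the other genotype and 719 to 790 with any of the 6 libraries left out, which asks for fewer libraries. Gained transcripts (76) were 121 at 3 counts, 36 at 10 and 171 to 198 with any library left out. The difference in detected transcripts stayed between -9.03 and -7.72% with a library left out, and was -22.5% for transcripts with whole counts. More calls were higher than lower with limma-voom, with the block and without any 1 of the WT libraries, the reverse of the 1094 lower and 924 higher. Calls were nearly even without the low-count filter (849 higher, 847 lower) and with a filter at a mean of 1 CPM (790 and 799). The difference between genotypes turned in 3 measures: above 0 to 0.1 (10.1% to -2.59% by CPM), 0.1 to 1 (-2.36% to 0.263% by CPM, and -4.85 to 1.32% with a library left out) and count-weighted length (0.807% to between -0.0112 and 1.94%). At these totals low transcripts go unread, and shared reads are divided by estimate, so absence here means no estimated count at this depth.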
